A study of Macaca mulatta with 27 samples.

Results

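The genes described here are the nuclear-encoded subunits of the mitochondrial oxidative phosphorylation system, chosen by symbol. Every symbol starting with NDUFA, NDUFB, NDUFC, NDUFS, or NDUFV and a number, SDHA to SDHD, symbols starting with UQCR, CYC1, those starting with COX and a number from 4 to 8, and those starting with ATP5 were taken, which gave 78 of the 17967 symbols in the count tables. They comprised 36 genes of complex I, 4 of complex II, 6 of complex III, 15 of complex IV, 15 of complex V, and 2 (ATP5S and ATP5SL) that the symbol rule matches but that were not counted as subunits. NDUFA4 and NDUFA4L2 were counted with complex IV, where NDUFA4 belongs despite its name. COX7A2L, which had 0 counts in every library, was placed in complex IV by its symbol alone. UQCR is listed in RefSeq as a synonym of UQCR11 and COX7AH as one of COX7A1. The rule used no measured value.

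The samples were 27 bulk RNA-seq libraries of rhesus macaque embryonic stem cells. All groups were the clonal line LyonES-tGFP-(S3), which carries a tauGFP reporter under the ubiquitous CAG promoter and a lentiviral STAT3-ERT2, a form of the transcription factor STAT3 that tamoxifen switches on. Primed cells, the conventional state of primate pluripotent stem cells, had 6 libraries. Cells reprogrammed toward naive pluripotency had 3 libraries for each of the protocols TL2i, TL-CDK8i, t2iLGöY, E-NHSM, 4i/L/b, LCDM (EPS), and NHSM-v. TL2i combines tamoxifen, LIF, and inhibitors of MEK and GSK3β. TL-CDK8i, written TL-CDK8/19i in the study, replaces both inhibitors with CNIO-47799, an inhibitor of the kinases CDK8 and CDK19. The labels give no doses or times, and the other protocols followed their original recipes. These were applied without tamoxifen, so that STAT3-ERT2 stayed inactive. Every group was thus derived from 1 clone, and the primed cells were passaged mechanically in clumps whereas the reprogrammed cells were dissociated into single cells, so that passaging and reprogramming cannot be told apart. Nothing says that the libraries of a group came from separate cultures, and p-values then measure only the spread between these libraries, which may be technical.

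Oxidative phosphorylation couples the oxidation of nutrients to ATP synthesis in the inner mitochondrial membrane. Complex I takes electrons from NADH and complex II from succinate, complex III passes them to cytochrome c, complex IV hands them to oxygen, and complex V, the ATP synthase, uses the proton gradient built by complexes I, III, and IV. Complexes I, III, IV, and V are assembled from subunits of both nuclear and mitochondrial DNA, whereas complex II is wholly nuclear-encoded. Primed pluripotent cells of primates are known for a largely glycolytic metabolism, and naive cells for a greater use of mitochondrial respiration, which is the setting in which the transcript levels of these subunits were compared. No subunit encoded in mitochondrial DNA was among the symbols of the count tables. COX5B, COX6A1, COX7A2, COX8C, UQCRB, UQCR10, and UQCRFS1 were also absent from them under these names and could not be analysed.

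Library totals ran from 7111886 to 20760914 counts, of which the 78 genes held 30003 to 148000. Levels are given as CPM, read counts relative to a library total scaled with TMM factors. A level depends on transcript length, so levels are compared between groups and not between genes. A count of 3 in a library, the level below which a gene was treated as not detectable, corresponded to 0.138 to 0.422 CPM. The 6 primed columns carry the letters J and K, with 3 each. The sample titles name a set Primed and a set Primed 2, to which the columns could not be tied, and all 6 were used as 1 group. Between K and J, edgeR called 0 of the 72 testable genes in either direction (1 higher and 2 lower at an unadjusted p under 0.05, and 0 by DESeq2), against 2.03% of all genes called higher and 1.7% lower. The primed library J3, the shallowest, stood apart for NDUFA1, NDUFC2, NDUFS1, and ATP5G1. Complex II was the complex whose summed level did not overlap between the letters, at 93.4 to 105 CPM in J and 108 to 124 CPM in K.

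Taken as a sum over all subunits, transcripts of the oxidative phosphorylation system were higher in E-NHSM cells than in primed cells and lower in the other 6 protocols. The primed libraries held 4985 to 5335 CPM, with a mean of 5159 ± 147 (SD, n = 6). E-NHSM libraries held 6847, 6665, and 6783 CPM, 131% of the primed mean. In NHSM-v the sum was 3387, 3327, and 3161 CPM, or 63.8% of primed. No library of either protocol overlapped the primed range. The sum was 3815, 3640.1, and 3881 CPM in 4i/L/b (73.2% of primed), 4129.7, 3653, and 3925 in TL2i (75.6%), and 3594, 3648, and 3611 in t2iLGöY (70.1%). LCDM (EPS) libraries held 3766, 3806, and 3523 CPM (71.7%). TL-CDK8i lay nearest to primed cells among the protocols with lower sums, at 4133, 4527, and 4796 CPM (86.9%), and had the widest spread, with an SD of 334. All of these libraries were below the lowest primed library, at 4985 CPM. The sums are a description without a test, and genes with many reads weigh most in them. In bulk RNA, fewer cells of a type and less RNA per cell cannot be told apart.

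The complexes did not share 1 size of difference. Complex IV spanned the widest range, from 58.3% of the primed mean in NHSM-v to 145% in E-NHSM, where its libraries held 760.2, 759, and 746 CPM against 496 to 549 in primed cells. Complex V ran from 59.3% in NHSM-v to 131% in E-NHSM and complex I from 66.1% to 127%. With TMM scaling complex III was lowest in t2iLGöY, at 391, 412, and 397 CPM against 590.3 to 639.8 in primed cells, or 64.3%. In TL-CDK8i the complex III sum was 549, 651, and 644 CPM, a mean of 98.9% of primed with overlapping ranges, while complex I stood at 81.3% and complex IV at 77.2% with no overlap. Complex II departed from the others. Its libraries held 93.4 to 124 CPM in primed cells and 106 to 121 in NHSM-v, 111 to 121 in TL2i, 97.0 to 105 in 4i/L/b, 99.6 to 101 in LCDM (EPS), and 95.2 to 112 in TL-CDK8i, all inside the primed range. Complex II lay outside that range in t2iLGöY, at 80.8 to 86.9 CPM, and in E-NHSM, at 139 to 144. Scaling by library totals alone turned some of these statements. Complex II of TL2i was then above all primed libraries, at 127, 116, and 119 CPM against 91.7 to 115, that of t2iLGöY overlapped them, at 93.9, 92.9, and 87.5, and complex III was lowest in NHSM-v, at 393 to 415 CPM against 422 to 444 in t2iLGöY. The all-subunit sums then stood at 139% of primed in E-NHSM and 60.7% in NHSM-v.

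**Figure D1:**
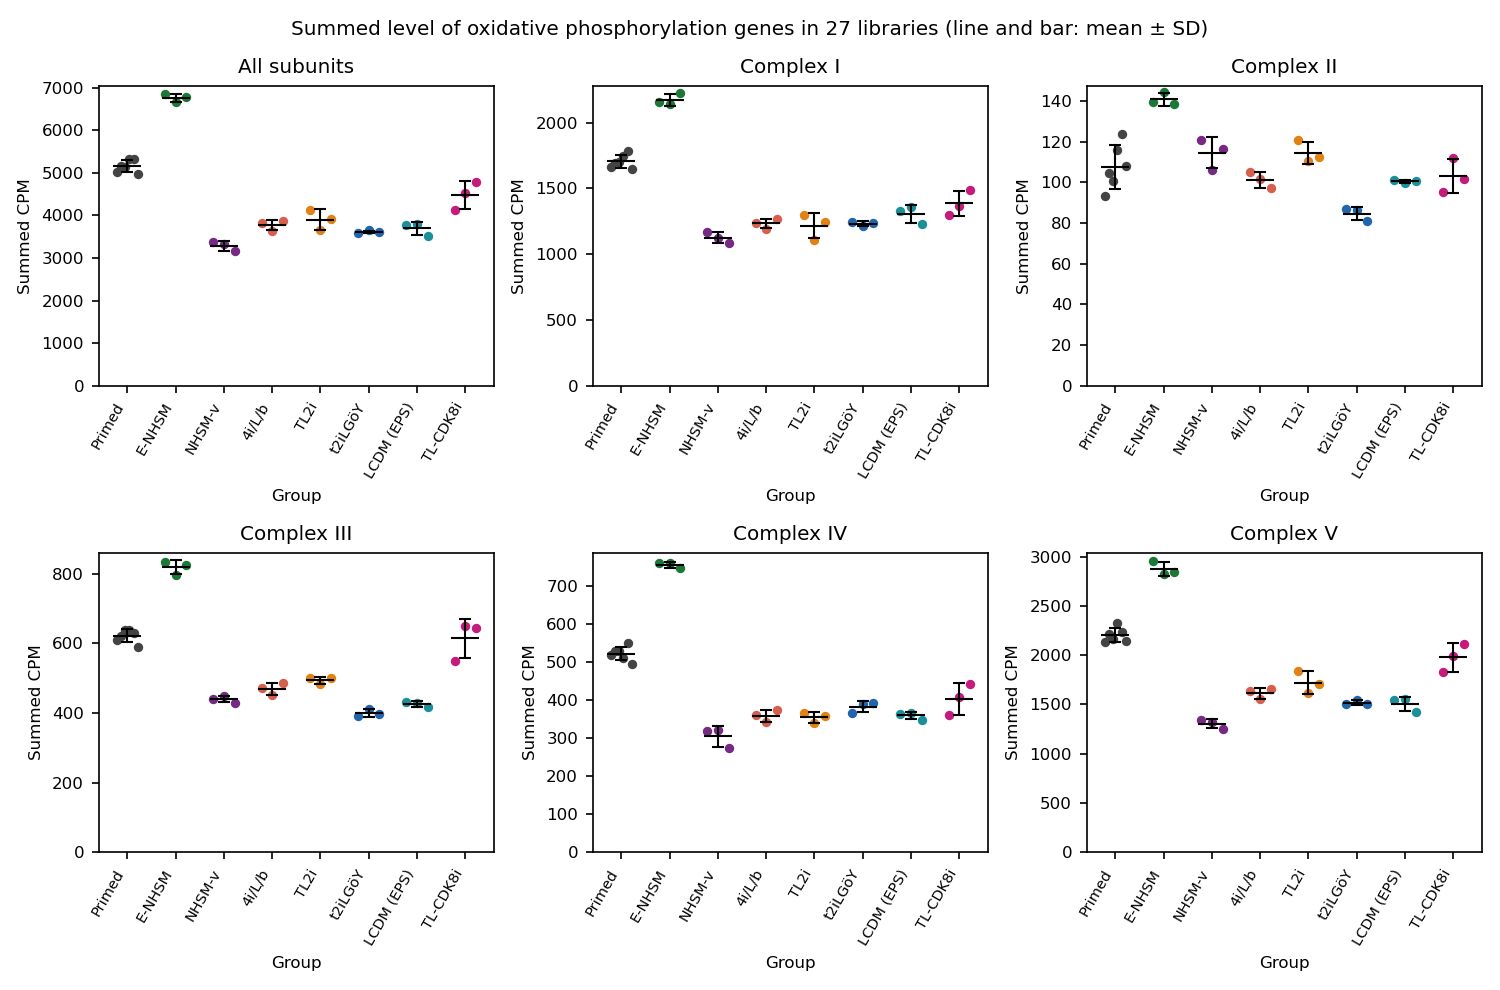
Summed CPM (vertical axis, linear from 0) of all subunits and of each complex in the 27 libraries, by group. Points are libraries, and the line and bar are the mean ± SD (n = 6 for primed, n = 3 for each protocol). E-NHSM lies above primed cells in every panel, and complex II of TL2i, NHSM-v, TL-CDK8i, LCDM (EPS), and 4i/L/b stays inside the primed range with this TMM scaling (with library totals TL2i lies above it) while their complexes I, IV, and V lie below it.

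Gene by gene, the direction of these differences followed the sums. Genes were called against primed cells where the Benjamini-Hochberg adjusted p of edgeR's quasi-likelihood test, over all genes tested, was under 0.05, and 72 of the 78 genes passed the filter on low counts in these comparisons (73 in TL2i). All 7 comparisons share the same primed libraries and are therefore given side by side. In E-NHSM, 35 of 72 genes were higher, against 11.1% of all genes, and 0 were lower by edgeR and by DESeq2 (1 at an unadjusted p under 0.05), against 15.1% of all genes. The median log2 fold change of the tested members was 0.42, beside 0.02 over all genes tested.

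In NHSM-v the pattern was the opposite. There, 44 of 72 genes were lower, against 30.6% of all genes, and 2 were higher, against 28%, with a median log2 fold change of -0.67 beside -0.02. In 4i/L/b, 38 were lower (background 29%) and 1 higher (background 26.6%), with a median of -0.49. In LCDM (EPS), 39 were lower (background 28.9%) and 2 higher (background 28.2%), with a median of -0.42. In t2iLGöY, 33 were lower (background 27.2%) and 0 higher by edgeR (background 27.1%), with 1 higher at an unadjusted p under 0.05 and 1 by DESeq2, and a median of -0.38.

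The protocols with activated STAT3-ERT2 came next. In TL2i, 34 of 73 genes were lower (background 25.2%) and 2 higher (background 25.6%), with a median of -0.39. The count of lower genes in TL2i was 22 with scaling by library totals, 21 without TL2i replicate 2, and 22 without TL2i replicate 3. In TL-CDK8i, 26 of 72 were lower (background 23.8%) and 4 higher (background 22.3%), with a median of -0.25, and the number of higher genes was 1 without TL-CDK8i replicate 2 or replicate 3 and 2 without primed library K2. With all 8 groups in 1 fit, 9 were higher and 28 lower in TL-CDK8i, so that higher genes made up 24.3% of the calls instead of 13.3%. The median over all genes tested lay between -0.02 and 0.07 in these 7 comparisons, and scaling by library totals raised it to 0.15 in LCDM (EPS), 0.15 in t2iLGöY, and 0.19 in TL2i.

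**Figure D2:**
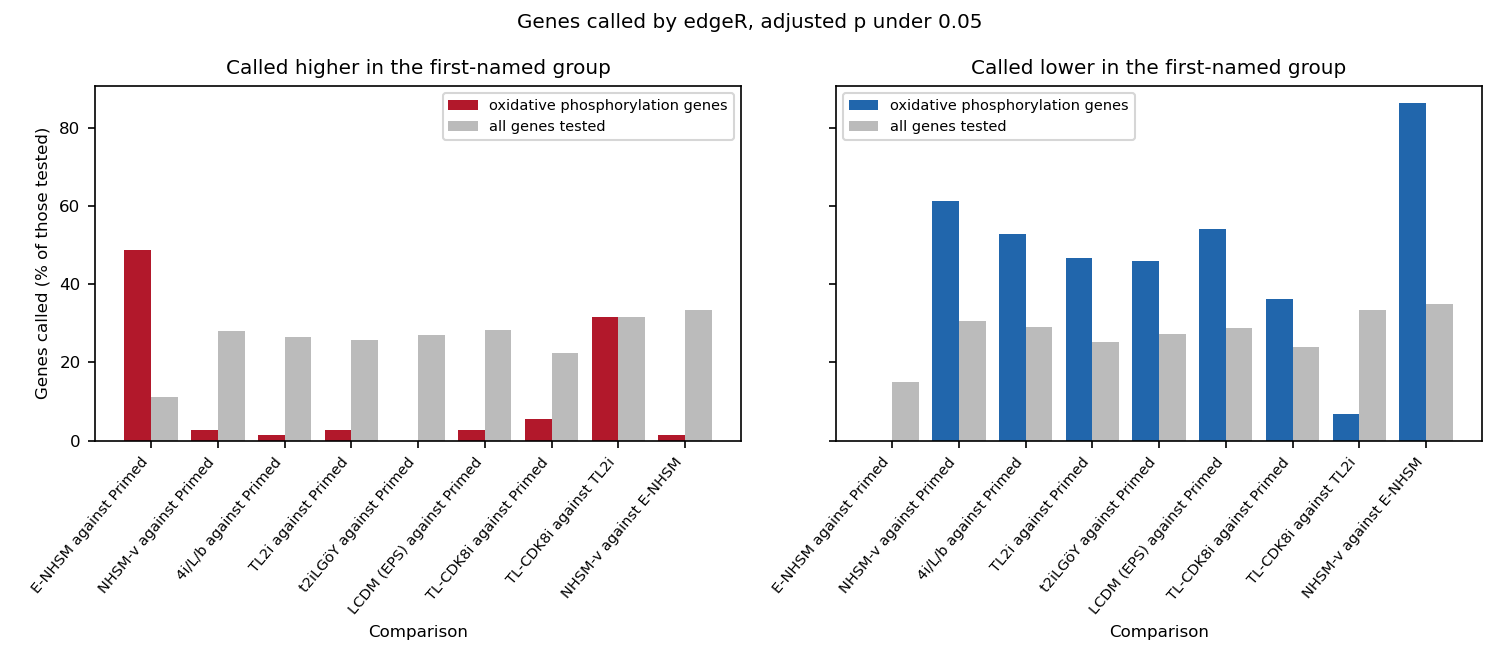
Percentage of oxidative phosphorylation genes (colored bars) and of all genes tested (grey bars) called by edgeR at an adjusted p under 0.05, higher on the left and lower on the right, in 7 comparisons with primed cells and 2 between protocols; the vertical axis starts at 0. The colored bar of E-NHSM stands above the grey one on the left, and those of the other protocols against primed cells on the right.

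**Figure D3:**
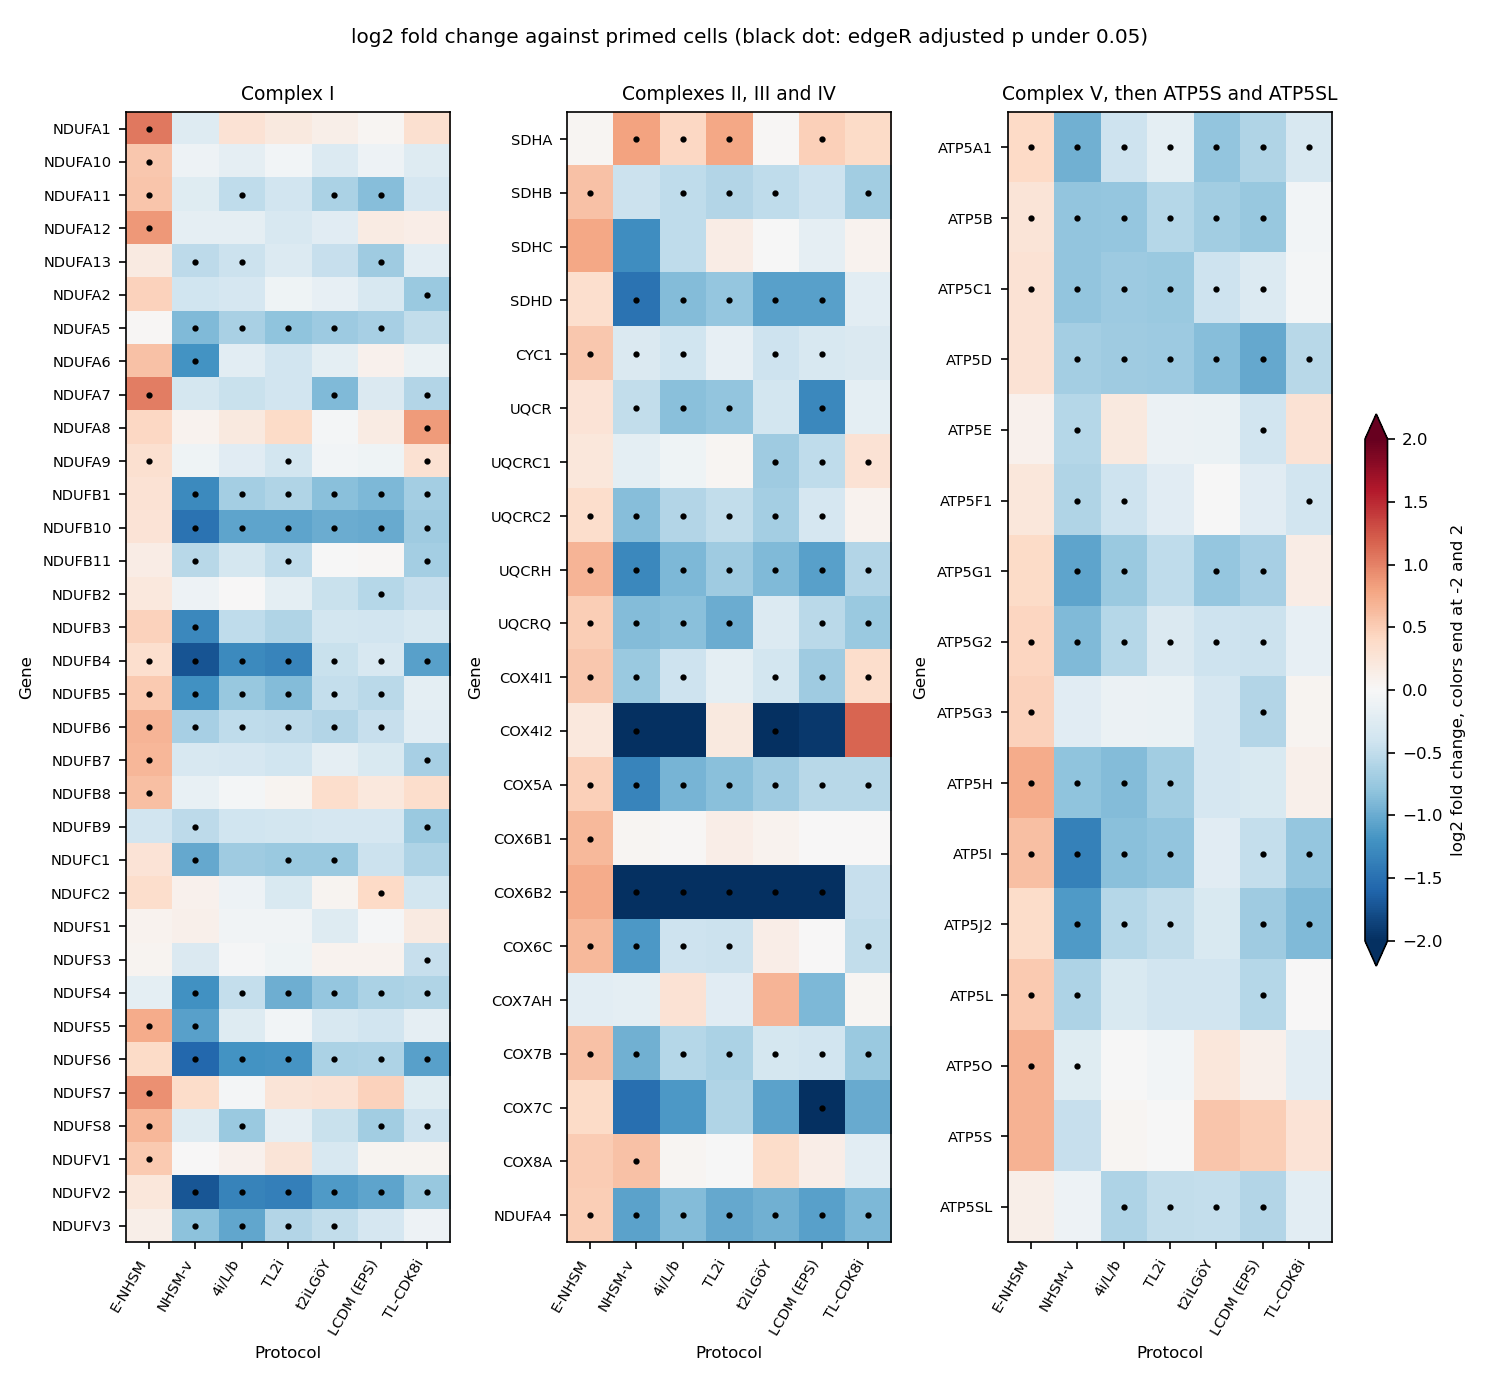
log2 fold change against primed cells (color, from blue for lower to red for higher, ending at -2 and 2) for genes tested in all 7 comparisons, by complex (rows, with 1 complex I gene not shown) and protocol (columns). Black dots mark an edgeR adjusted p under 0.05. The E-NHSM column is mostly red and the others mostly blue, with SDHA, NDUFA8, COX8A, and NDUFC2 among the exceptions.

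Complex I has a matrix arm, where NADH is oxidized, and a membrane arm that pumps protons, with core subunits that do the chemistry and accessory subunits around them. The tables held 7 nuclear core subunits and 29 accessory ones. Among the core subunits, 3 of 7 (42.9%) rose in E-NHSM, against 11.1% of all genes. In each of TL2i, NHSM-v, and t2iLGöY, 2 (28.6%) fell, near the 25.2%, 30.6%, and 27.2% of all genes called lower there. In TL-CDK8i 4 fell (57.1%, against 23.8%), and in each of LCDM (EPS) and 4i/L/b 3 (42.9%, against 28.9% and 29%). NDUFV2, an iron-sulfur subunit, fell in each of these 6 protocols. NDUFV1, which binds NADH, and NDUFS1, which holds several iron-sulfur clusters, were not called in any of the 6.

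NDUFV2 is the iron-sulfur partner of NDUFV1 at the tip of the matrix arm. Its level ran from 108 to 177 CPM with a median of 134 in the 6 primed libraries. It was 45.7, 40.3, and 43.1 CPM in NHSM-v, 52.2, 54.6, and 60.4 in 4i/L/b, and 59.9, 45.3, and 51.8 in TL2i. It was 56.0, 58.9, and 66.1 CPM in t2iLGöY, 61.3, 71.1, and 58.7 in LCDM (EPS), and 85.4, 72.8, and 88.6 in TL-CDK8i. All 18 libraries lay below the lowest primed library, whereas the E-NHSM libraries, at 166, 143, and 168 CPM, overlapped the primed range. The log2 fold change (± SE) by edgeR was -1.71 ± 0.16, adjusted p = 3.3e-07 in NHSM-v, -1.37 ± 0.16, adjusted p = 1.1e-05 in TL2i, and -0.76 ± 0.15, adjusted p = 0.00106 in TL-CDK8i. The other 3 had log2 fold changes of -1.33 in 4i/L/b, -1.14 in t2iLGöY, and -1.06 in LCDM (EPS).

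NDUFV1 behaved otherwise. Its level ran from 49.8 to 68.9 CPM with a median of 56.6 in primed cells and was 80.0, 70.9, and 94.2 CPM in E-NHSM. It was 68.4, 59.0, and 50.6 CPM in NHSM-v, 62.4, 63.0, and 62.3 in 4i/L/b, 71.5, 65.5, and 65.7 in TL2i, and 62.6, 32.1, and 38.4 in t2iLGöY. E-NHSM stood above every primed library, and the other protocols overlapped the primed range. The edgeR log2 fold change was 0.52 ± 0.13, adjusted p = 0.0068 in E-NHSM, a call that was lost without E-NHSM replicate 3 (adjusted p = 0.0789), and between -0.32 and 0.25 elsewhere, with adjusted p from 0.099 to 0.95. For NDUFS1 the log2 fold changes lay between -0.26 in t2iLGöY and 0.18 in TL-CDK8i, without a call against primed cells in the 7 protocols.

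NDUFS7, a core subunit next to the quinone site, was among the 3 members with the greatest rise in E-NHSM. Its level ran from 12.1 to 19.1 CPM with a median of 16.8 in primed cells and was 36.2, 31.1, and 25.6 CPM in E-NHSM. The ranges did not overlap, and the log2 fold change was 0.91 ± 0.20, adjusted p = 0.00269 by edgeR. In the other 6 protocols NDUFS7 was not called, with log2 fold changes from -0.24 in TL-CDK8i to 0.46 in LCDM (EPS). Even so, NHSM-v, at 24.1, 20.0, and 22.0 CPM, and LCDM (EPS), at 22.3, 24.9, and 19.5, also lay above all primed libraries.

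Of the accessory subunits of complex I, 12 of 28 rose in E-NHSM (42.9%, against 11.1% of all genes). Those that fell numbered 16 in NHSM-v (57.1%, against 30.6%), 12 in TL2i (42.9%, against 25.2%), and 12 in t2iLGöY (42.9%, against 27.2%). In each of 4i/L/b and LCDM (EPS) 11 fell (39.3%, against 29% and 28.9%). In TL-CDK8i 10 fell (35.7%, against 23.8%) and 2 rose (7.14%, against 22.3%). NDUFB4, a subunit of the membrane arm, ran from 114 to 146 CPM with a median of 138 in primed cells. Its level was 166, 159, and 181 CPM in E-NHSM, 40.9, 38.6, and 45.8 in NHSM-v, 62.9, 53.3, and 56.2 in 4i/L/b, and 60.1, 47.3, and 54.2 in TL2i. It was 104, 105, and 79.2 CPM in t2iLGöY, 113, 108, and 92.8 in LCDM (EPS), and 56.3, 67.3, and 70.3 in TL-CDK8i. E-NHSM was wholly above the primed libraries and the other 6 protocols wholly below, with t2iLGöY and LCDM (EPS) nearest to them.

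By edgeR, the log2 fold change of NDUFB4 was -1.73 ± 0.12, adjusted p = 8.5e-09 in NHSM-v, -1.31 ± 0.11, adjusted p = 5.0e-07 in TL2i, -1.27 ± 0.11, adjusted p = 3.2e-07 in 4i/L/b, and -1.09 ± 0.12, adjusted p = 4.0e-06 in TL-CDK8i. It was -0.45 ± 0.12, adjusted p = 0.00494 in t2iLGöY. The smaller differences were less secure. In LCDM (EPS) the log2 fold change was -0.32 ± 0.10, adjusted p = 0.0165, lost without LCDM (EPS) replicate 2 or LCDM (EPS) replicate 3 (adjusted p 0.053 to 0.141) and with scaling by library totals, and in E-NHSM it was 0.33 ± 0.10, adjusted p = 0.019, lost without E-NHSM replicate 1 or E-NHSM replicate 3 (adjusted p 0.0576 to 0.123).

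NDUFS6, a zinc-binding accessory subunit of the NADH-oxidizing module, ran from 33.9 to 58.1 CPM with a median of 41.2 in primed cells. It was 15.0, 15.2, and 14.7 CPM in NHSM-v, 19.2, 21.7, and 17.3 in 4i/L/b, 18.7, 15.4, and 22.7 in TL2i, and 18.8, 21.9, and 21.2 in TL-CDK8i. Each of these libraries was below the lowest primed one. The edgeR log2 fold changes were -1.57 ± 0.21, adjusted p = 1.0e-05 in NHSM-v and -1.09 ± 0.19, adjusted p = 3.4e-04 in TL-CDK8i, and lower levels were also called in TL2i (-1.18), 4i/L/b (-1.20), LCDM (EPS) (-0.62), and t2iLGöY (-0.64). The call was lost in t2iLGöY without t2iLGöY replicate 2 (adjusted p = 0.0553) and in LCDM (EPS) without LCDM (EPS) replicate 3 (adjusted p = 0.0765). NDUFB10, another membrane arm subunit, was at 46.6, 45.8, and 30.6 CPM in t2iLGöY, where the primed libraries ran from 72.3 to 96.6 CPM with a median of 82.1. It did not overlap them and had a log2 fold change of -0.99 ± 0.16, adjusted p = 9.3e-05. NDUFB10 was also called lower in 4i/L/b, TL2i, LCDM (EPS), TL-CDK8i, and NHSM-v, where it was at 35.3, 25.0, and 32.9 CPM.

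NDUFA1, a small membrane subunit needed for assembly, ran from 2.53 to 14.7 CPM with a median of 13.3 in primed cells and was 25.8, 25.5, and 21.9 CPM in E-NHSM. E-NHSM lay above all primed libraries, with a log2 fold change of 1.05 ± 0.34, adjusted p = 0.0286 by edgeR, but the call was lost without E-NHSM replicate 1, E-NHSM replicate 2, or E-NHSM replicate 3 (adjusted p 0.0632 to 0.102), and the primed library J3 was far below the other 5. NDUFA7, a subunit of the matrix arm, ran from 16.8 to 34.9 CPM with a median of 27.3 in primed cells, was 53.1, 54.5, and 53.8 CPM in E-NHSM and 16.7, 10.2, and 14.8 CPM in t2iLGöY. It rose in E-NHSM (log2 fold change 1.03 ± 0.19, adjusted p = 4.6e-04) and fell in t2iLGöY (-0.89 ± 0.26, adjusted p = 0.0102), the latter call being lost without t2iLGöY replicate 2 (adjusted p = 0.0599). It was also called lower in TL-CDK8i (-0.58 ± 0.22, adjusted p = 0.0448), a call lost in 7 of 9 omissions of 1 library, all but that of primed library J3 or primed library K3 (adjusted p 0.0586 to 0.16) and by DESeq2.

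NDUFA8, an intermembrane space subunit, ran from 17.6 to 29.5 CPM with a median of 26.5 in primed cells and was 33.6, 53.7, and 51.3 CPM in TL-CDK8i. All TL-CDK8i libraries exceeded the primed ones, with a log2 fold change of 0.85 ± 0.19, adjusted p = 0.00223. NDUFA9, at the junction of both arms, ran from 72.4 to 95.3 CPM with a median of 87.1 in primed cells, was 103, 106, and 118 CPM in TL-CDK8i and 69.4, 66.3, and 63.7 CPM in TL2i. It was called higher in TL-CDK8i (0.31 ± 0.11, adjusted p = 0.0316) and lower in TL2i (-0.37 ± 0.11, adjusted p = 0.0105), the first lost without primed library J2, primed library K2, TL-CDK8i replicate 2, or TL-CDK8i replicate 3 (adjusted p 0.0524 to 0.133) and the second without TL2i replicate 3 (adjusted p = 0.0607). Higher NDUFA9 was also called in E-NHSM, a call lost in 6 of 9 omissions of 1 library (adjusted p 0.0571 to 0.305). NDUFC2, which sits in the membrane arm, was at 48.1, 54.6, and 50.4 CPM in LCDM (EPS), beside primed libraries running from 30.7 to 44.7 CPM with a median of 40.6. The ranges did not overlap, the log2 fold change was 0.39 ± 0.14, adjusted p = 0.0239, and the call was lost without LCDM (EPS) replicate 2 or LCDM (EPS) replicate 3 (adjusted p 0.0533 to 0.0907).

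Complex II, succinate dehydrogenase, serves both the respiratory chain and the tricarboxylic acid cycle. Its subunits moved in opposite directions. SDHA, the flavoprotein that oxidizes succinate, rose in TL2i, NHSM-v, LCDM (EPS), and 4i/L/b, whereas SDHD, a membrane anchor, fell in those protocols and in t2iLGöY. SDHA ran from 29.0 to 47.8 CPM with a median of 39.1 in primed cells. It was 76.1, 64.7, and 71.3 CPM in NHSM-v, 65.3, 71.5, and 64.2 in TL2i, 55.6, 58.3, and 48.6 in 4i/L/b, and 56.9, 50.2, and 53.0 in LCDM (EPS). These 12 libraries were above the highest primed library.

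SDHA was 44.3, 38.4, and 38.6 CPM in E-NHSM, 42.5, 36.2, and 38.5 in t2iLGöY, and 49.6, 54.3, and 53.4 in TL-CDK8i. E-NHSM and t2iLGöY overlapped the primed range, and TL-CDK8i did not. The edgeR log2 fold change of SDHA was 0.80 ± 0.15, adjusted p = 3.6e-04 in NHSM-v and 0.77 ± 0.14, adjusted p = 5.1e-04 in TL2i. It was 0.48 ± 0.15, adjusted p = 0.0149 in LCDM (EPS), lost without LCDM (EPS) replicate 1 (adjusted p = 0.0616), and 0.41 ± 0.15, adjusted p = 0.0325 in 4i/L/b, lost without 4i/L/b replicate 1 or 4i/L/b replicate 2 (adjusted p 0.0858 to 0.129). In TL-CDK8i it was 0.38 ± 0.15, adjusted p = 0.052, short of the threshold.

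SDHD ran from 8.87 to 21.6 CPM with a median of 14.9 in primed cells. It was 4.59, 4.84, and 7.27 CPM in NHSM-v, 5.98, 7.10, and 7.71 in t2iLGöY, 7.50, 5.49, and 7.81 in LCDM (EPS), and 10.9, 6.44, and 9.10 in TL2i. NHSM-v, t2iLGöY, and LCDM (EPS) lay below all primed libraries, and TL2i overlapped them. Its log2 fold change by edgeR was -1.48 ± 0.34, adjusted p = 0.00172 in NHSM-v, -1.09 ± 0.33, adjusted p = 0.0118 in t2iLGöY, and -1.08 ± 0.31, adjusted p = 0.00885 in LCDM (EPS), lost in t2iLGöY without t2iLGöY replicate 1 (adjusted p = 0.0516) and in LCDM (EPS) without LCDM (EPS) replicate 2 (adjusted p = 0.0544). The TL2i call (-0.77 ± 0.31, adjusted p = 0.0495) was lost in 7 of 9 omissions of 1 library, all but that of primed library J3 or primed library K1 (adjusted p 0.0576 to 0.209) and that in 4i/L/b (-0.87 ± 0.29, adjusted p = 0.0214) was lost in 5 of 9 omissions of 1 library, all but that of primed library J1, primed library J3, primed library K1, or primed library K2 (adjusted p 0.05002 to 0.0798).

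SDHB, the iron-sulfur subunit, ran from 32.0 to 59.2 CPM with a median of 46.5 in primed cells and was 62.4, 71.6, and 71.0 CPM in E-NHSM, above all of them, and 27.1, 31.7, and 28.1 CPM in TL-CDK8i, below all of them. It rose in E-NHSM (0.58 ± 0.16, adjusted p = 0.0103), lost without E-NHSM replicate 2 or E-NHSM replicate 3 (adjusted p 0.0538 to 0.0567), and fell in TL-CDK8i (-0.69 ± 0.18, adjusted p = 0.00576), lost with the primed letter J alone (adjusted p = 0.0645). Lower SDHB was also called in 4i/L/b (-0.51), TL2i (-0.59), and t2iLGöY (-0.51), each with overlapping ranges. The call in 4i/L/b was lost in 6 of 9 omissions of 1 library, all but that of primed library J1, primed library J2, or primed library J3 (adjusted p 0.0522 to 0.121), that in TL2i was lost without TL2i replicate 2 or TL2i replicate 3 (adjusted p 0.0596 to 0.104), and that in t2iLGöY without primed library K1, primed library K2, t2iLGöY replicate 1, or t2iLGöY replicate 3 (adjusted p 0.0524 to 0.118). SDHC, the second membrane anchor, was not called against primed cells, and its log2 fold changes ran from -1.24 in NHSM-v, where the adjusted p was 0.0548, to 0.77 in E-NHSM, where it was 0.0801.

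Complex III carries electrons from ubiquinol to cytochrome c. Of its 6 genes found in the count tables, 4 rose in E-NHSM (66.7%, against 11.1% of all genes). In contrast, 5 fell in each of NHSM-v and 4i/L/b (83.3%, against 30.6% and 29%), and 6 in LCDM (EPS) (100%, against 28.9%). In each of TL2i and t2iLGöY 4 fell (66.7%, against 25.2% and 27.2%). In TL-CDK8i 2 fell (33.3%, against 23.8%) and 1 rose (16.7%, against 22.3%). UQCRH, the hinge protein that holds cytochrome c1, ran from 56.7 to 79.0 CPM with a median of 71.8 in primed cells. Its level was 97.1, 116, and 122 CPM in E-NHSM, 36.9, 28.8, and 23.1 in NHSM-v, and 41.1, 26.9, and 28.2 in LCDM (EPS). The first lay above and the others below all primed libraries, with log2 fold changes of 0.68 ± 0.13, adjusted p = 5.3e-04 in E-NHSM, -1.29 ± 0.17, adjusted p = 1.4e-05 in NHSM-v, and -1.09 ± 0.17, adjusted p = 7.6e-05 in LCDM (EPS). Lower UQCRH was also called in 4i/L/b (-0.89), TL2i (-0.71), t2iLGöY (-0.89), and TL-CDK8i (-0.58).

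UQCRC1, a core protein on the matrix side, separated the protocols differently. It ran from 159.5 to 189 CPM with a median of 171 in primed cells, was 102, 105, and 99.7 CPM in t2iLGöY, 122, 119.6, and 111 in LCDM (EPS), and 186, 234, and 223 in TL-CDK8i. It was below all primed libraries in t2iLGöY and LCDM (EPS), with log2 fold changes of -0.71 ± 0.09, adjusted p = 1.3e-05 and -0.51 ± 0.09, adjusted p = 2.3e-04. In TL-CDK8i 1 of 3 libraries overlapped the primed range, the log2 fold change was 0.29 ± 0.10, adjusted p = 0.0254, and the call was lost without TL-CDK8i replicate 2 or TL-CDK8i replicate 3 (adjusted p 0.0776 to 0.162). NHSM-v, 4i/L/b, and TL2i had log2 fold changes of -0.19, -0.08, and 0.04, without a call. UQCR, a small subunit, was at 14.06, 17.27, and 13.98 CPM in LCDM (EPS), against primed libraries that ran from 29.3 to 50.1 CPM with a median of 36.5. The groups did not overlap, and the log2 fold change was -1.29 ± 0.20, adjusted p = 8.3e-05. Lower UQCR was also called in 4i/L/b and TL2i. The call in NHSM-v was lost in 6 of 9 omissions of 1 library (adjusted p 0.0555 to 0.187) and by DESeq2.

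CYC1, the cytochrome c1 subunit itself, ran from 96.2 to 128 CPM with a median of 114 in primed cells and was 163, 164, and 167 CPM in E-NHSM. E-NHSM was above all primed libraries, with a log2 fold change of 0.53 ± 0.11, adjusted p = 0.00112. CYC1 was called lower in 4i/L/b (-0.40 ± 0.11, adjusted p = 0.00729) and, with a call that depended on single libraries, in t2iLGöY (-0.41, lost without t2iLGöY replicate 2 (adjusted p = 0.05041)), LCDM (EPS) (-0.32, lost without primed library K2, LCDM (EPS) replicate 1, LCDM (EPS) replicate 2, or LCDM (EPS) replicate 3 (adjusted p 0.0572 to 0.157)), and NHSM-v (-0.29, lost in 8 of 9 omissions of 1 library, all but that of primed library K3 (adjusted p 0.0546 to 0.175)).

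Complex IV, cytochrome c oxidase, has several subunits for which tissues switch between paralogs. Of the 11 genes tested, 6 rose in E-NHSM (54.5%, against 11.1% of all genes) and 7 fell in NHSM-v (63.6%, against 30.6%). In each of 4i/L/b, t2iLGöY, and LCDM (EPS) 6 fell (54.5%, against 29%, 27.2%, and 28.9%). In TL-CDK8i 4 fell (36.4%, against 23.8%), and in TL2i 5 of 12 (41.7%, against 25.2%). COX5A, which binds next to the regulatory subunit COX4, ran from 130.3 to 144 CPM with a median of 139 in primed cells. It was 215, 175, and 189.6 CPM in E-NHSM, 51.8, 61.6, and 58.0 in NHSM-v, 75.8, 70.9, and 78.4 in 4i/L/b, and 79.0, 71.3, and 81.6 in TL2i. It was 79.2, 79.2, and 88.2 CPM in t2iLGöY, 95.4, 86.7, and 94.2 in LCDM (EPS), and 87.3, 100.1, and 103 in TL-CDK8i. No protocol overlapped the primed libraries, E-NHSM being above and the other 6 below.

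The log2 fold change of COX5A by edgeR was 0.48 ± 0.09, adjusted p = 6.7e-04 in E-NHSM, -1.32 ± 0.10, adjusted p = 3.4e-08 in NHSM-v, and -0.55 ± 0.10, adjusted p = 3.3e-04 in TL-CDK8i. NDUFA4, a small subunit first assigned to complex I, ran from 97.3 to 127 CPM with a median of 110.4 in primed cells, was 149, 155, and 164 CPM in E-NHSM, 54.9, 55.5, and 42.1 in LCDM (EPS), and 57.1, 57.0, and 67.6 in TL-CDK8i. It rose in E-NHSM (0.49 ± 0.10, adjusted p = 0.00171) and fell in LCDM (EPS) (-1.09 ± 0.13, adjusted p = 6.4e-06) and TL-CDK8i (-0.90 ± 0.12, adjusted p = 2.9e-05), and was also called lower in TL2i (-1.02), NHSM-v (-1.08), t2iLGöY (-0.96), and 4i/L/b (-0.87).

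COX4I1, the ubiquitous form of the regulatory subunit COX4, ran from 60.4 to 84.3 CPM with a median of 68.3 in primed cells. Its level was 103, 100.1, and 97.6 CPM in E-NHSM, 82.4, 88.2, and 101 in TL-CDK8i, 39.4, 52.9, and 35.8 in NHSM-v, and 40.6, 41.2, and 42.5 in LCDM (EPS). E-NHSM was above and NHSM-v and LCDM (EPS) below all primed libraries, and TL-CDK8i overlapped the highest of them. It rose in E-NHSM (0.53 ± 0.12, adjusted p = 0.0027) and fell in NHSM-v (-0.75 ± 0.16, adjusted p = 9.2e-04) and LCDM (EPS) (-0.71 ± 0.13, adjusted p = 3.7e-04). The call in TL-CDK8i (0.35 ± 0.13, adjusted p = 0.0327) was lost without primed library K2, TL-CDK8i replicate 2, or TL-CDK8i replicate 3 (adjusted p 0.0557 to 0.151). Lower COX4I1 in 4i/L/b (-0.42) was lost without 4i/L/b replicate 1 or 4i/L/b replicate 2 (adjusted p 0.0513 to 0.103), and that in t2iLGöY (-0.36) without t2iLGöY replicate 1, t2iLGöY replicate 2, or t2iLGöY replicate 3 (adjusted p 0.0656 to 0.11) and by DESeq2.

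The alternative forms had few counts. COX4I2, the form best known from lung and from low oxygen, had 0 to 31 counts in the primed libraries, of which J3 and K3 were at 0, and 17, 20, and 25 in E-NHSM, 16, 14, and 23 in TL2i, and 21, 11, and 30 in TL-CDK8i. It had 0, 1, and 1 counts in 4i/L/b and 0 in all libraries of NHSM-v and t2iLGöY, so that its level there was at least 3.01-fold lower in NHSM-v and at least 4.50-fold lower in t2iLGöY than the primed mean, taking 3 counts per library as the limit. Both comparisons were called by edgeR (adjusted p = 0.0348 and 0.0308), although the primed libraries at 0 overlapped them. The NHSM-v call was lost in 6 of 9 omissions of 1 library, all but that of primed library J3, primed library K1, or primed library K3 (adjusted p 0.05018 to 0.0934), and the t2iLGöY call was lost without primed library K2, t2iLGöY replicate 1, t2iLGöY replicate 2, or t2iLGöY replicate 3 (adjusted p 0.056 to 0.0812).

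COX6B2, known as the testis form of COX6B, had 7 to 67 counts in primed libraries and 150, 71, and 116 in the deeper E-NHSM libraries. In CPM these ranges overlapped, at 0.985 to 6.01 in primed cells and 7.04, 3.94, and 6.25 in E-NHSM, without a call. COX6B2 had 7, 0, and 0 counts in NHSM-v, 5, 0, and 6 in 4i/L/b, 2, 8, and 13 in LCDM (EPS), and 17, 18, and 9 in TL2i. In t2iLGöY all 3 libraries were at 0, at least 16.7-fold lower than in primed cells. EdgeR called COX6B2 lower in those 5 protocols, with adjusted p = 4.8e-04 in t2iLGöY and 0.0118 in LCDM (EPS), and the call in TL2i was lost in 6 of 9 omissions of 1 library, all but that of primed library J1, primed library J3, or primed library K2 (adjusted p 0.055 to 0.131) and that in NHSM-v lost without NHSM-v replicate 2 or NHSM-v replicate 3 (adjusted p 0.066 to 0.0678). Its ubiquitous counterpart COX6B1 rose in E-NHSM (0.64 ± 0.16, adjusted p = 0.00576) and was not called in the other 6, with log2 fold changes from 0.01 to 0.13.

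NDUFA4L2, a paralog of NDUFA4 induced by low oxygen, had 0 counts in all 6 primed libraries. It had 43, 19, and 16 counts in TL2i, 31, 29, and 0 in E-NHSM, 13, 19, and 0 in t2iLGöY, and 25, 0, and 6 in LCDM (EPS). It had 13, 4, and 5 counts in 4i/L/b, 8, 9, and 5 in TL-CDK8i, and 8, 3, and 2 in NHSM-v. All 3 libraries were above 3 counts in TL2i, 4i/L/b, and TL-CDK8i, whereas E-NHSM, t2iLGöY, and LCDM (EPS) had 1 library at 0. Against the primed limit of 3 counts per library, the mean level was at least 2.45-fold higher in 4i/L/b and at least 2.62-fold higher in TL-CDK8i. In TL2i the mean level was at least 4.77-fold higher than the primed limit of 3 counts per library, and in E-NHSM at least 3.37-fold. The gene passed the filter on low counts against primed cells in TL2i alone, and only through its TL2i counts. EdgeR called it there (adjusted p = 0.00289), but a gene kept in this way adds no separate support. NDUFA4L2 is 1 of the 2 members counted as higher in TL2i. COX7B, another small subunit, rose in E-NHSM (0.59 ± 0.11, adjusted p = 7.6e-04) and fell in NHSM-v (-0.96 ± 0.13, adjusted p = 2.0e-05) and TL-CDK8i (-0.74 ± 0.15, adjusted p = 7.6e-04). Lower COX7B was also called in 4i/L/b and TL2i. It was called lower too in LCDM (EPS), lost without LCDM (EPS) replicate 2 or replicate 3 (adjusted p 0.0527 to 0.0601). The call in t2iLGöY was lost without primed library J2, t2iLGöY replicate 2, or t2iLGöY replicate 3 (adjusted p 0.0572 to 0.197). COX8A, the widely expressed form of COX8, was 48.8, 42.6, and 37.4 CPM in NHSM-v and ran from 17.2 to 33.4 CPM with a median of 30.6 in primed cells. It rose in NHSM-v (0.59 ± 0.20, adjusted p = 0.0203), a call lost without NHSM-v replicate 1 or NHSM-v replicate 2 (adjusted p 0.0558 to 0.0926).

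Complex V joins a membrane ring that turns with the proton flow to a catalytic head. Of its 14 tested genes, 9 rose in E-NHSM (64.3%, against 11.1% of all genes). The genes that fell numbered 13 in NHSM-v (92.9%, against 30.6%), 10 in 4i/L/b (71.4%, against 29%), and 11 in LCDM (EPS) (78.6%, against 28.9%). In TL2i 8 fell (57.1%, against 25.2%), in t2iLGöY 6 (42.9%, against 27.2%), and in TL-CDK8i 5 (35.7%, against 23.8%). ATP5A1, the alpha subunit of the head, had the smallest adjusted p of all members in the test among the 7 protocols (1.2e-15). It ran from 696 to 751 CPM with a median of 716 in primed cells. It was 992, 903, and 946 CPM in E-NHSM, 399, 369, and 369 in NHSM-v, 407, 389.6, and 417 in t2iLGöY, and 455, 469.8, and 451 in LCDM (EPS). It was 561, 529, and 569.7 CPM in 4i/L/b, 659.7, 593, and 615 in TL2i, and 557, 578, and 630.0 in TL-CDK8i. All E-NHSM libraries were above the primed ones and all others below.

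For ATP5A1 the log2 fold change was 0.40 ± 0.06, adjusted p = 2.3e-05 in E-NHSM, -0.97 ± 0.06, adjusted p = 5.7e-09 in NHSM-v, and -0.79 ± 0.06, adjusted p = 5.6e-08 in t2iLGöY. It was -0.32 ± 0.07, adjusted p = 0.00122 in TL-CDK8i and -0.20 ± 0.06, adjusted p = 0.0164 in TL2i, where the call was lost without TL2i replicate 2 or TL2i replicate 3 (adjusted p 0.0786 to 0.0789) and with scaling by library totals. ATP5B, the catalytic beta subunit, ran from 374 to 458 CPM with a median of 406 in primed cells. It was 529.7, 467, and 483 CPM in E-NHSM, 230.1, 265, and 244 in NHSM-v, 242, 248, and 257 in 4i/L/b, and 366, 412, and 433 in TL-CDK8i. NHSM-v and 4i/L/b were below all primed libraries, and TL-CDK8i overlapped them, with log2 fold changes of -0.79 ± 0.09, adjusted p = 1.3e-06, -0.78 ± 0.08, adjusted p = 2.0e-06, and -0.06 ± 0.09, adjusted p = 0.593. ATP5B also fell in TL2i (-0.58), t2iLGöY (-0.70), and LCDM (EPS) (-0.76), and rose in E-NHSM (0.26), a call lost without E-NHSM replicate 1 (adjusted p = 0.124).

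The membrane ring is built from a single small protein that 3 genes encode. In NHSM-v, ATP5G1 fell by 1.06 and ATP5G2 by 0.88 on the log2 scale (adjusted p = 0.00179 and 8.5e-07), while ATP5G3 had a log2 fold change of -0.22 ± 0.14, adjusted p = 0.184. ATP5G2 ran from 259 to 313 CPM with a median of 285 in primed cells and was 170.1, 155, and 157 CPM in NHSM-v, below all of them. ATP5G3 ran from 48.2 to 62.6 CPM with a median of 57.8 and was 50.6, 49.9, and 48.6 CPM in NHSM-v, where the ranges overlapped. In LCDM (EPS) all 3 were called lower (ATP5G1 -0.66, ATP5G2 -0.44, ATP5G3 -0.59), the ATP5G1 call being lost without LCDM (EPS) replicate 1 or LCDM (EPS) replicate 2 (adjusted p 0.0996 to 0.116). In E-NHSM, ATP5G2 (0.43 ± 0.08, adjusted p = 6.6e-04) and ATP5G3 (0.46 ± 0.13, adjusted p = 0.017) rose, the latter lost without E-NHSM replicate 2 (adjusted p = 0.143). ATP5G2 was also called lower in 4i/L/b, t2iLGöY, and TL2i, the last lost without TL2i replicate 2 or replicate 3 (adjusted p 0.0832 to 0.125). Lower ATP5G1 in 4i/L/b was lost without 4i/L/b replicate 1 or replicate 2 (adjusted p 0.0586 to 0.0609). That in t2iLGöY was lost without t2iLGöY replicate 2 (adjusted p = 0.0892). The size of the difference between the 3 genes was not tested.

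**Figure D4:**
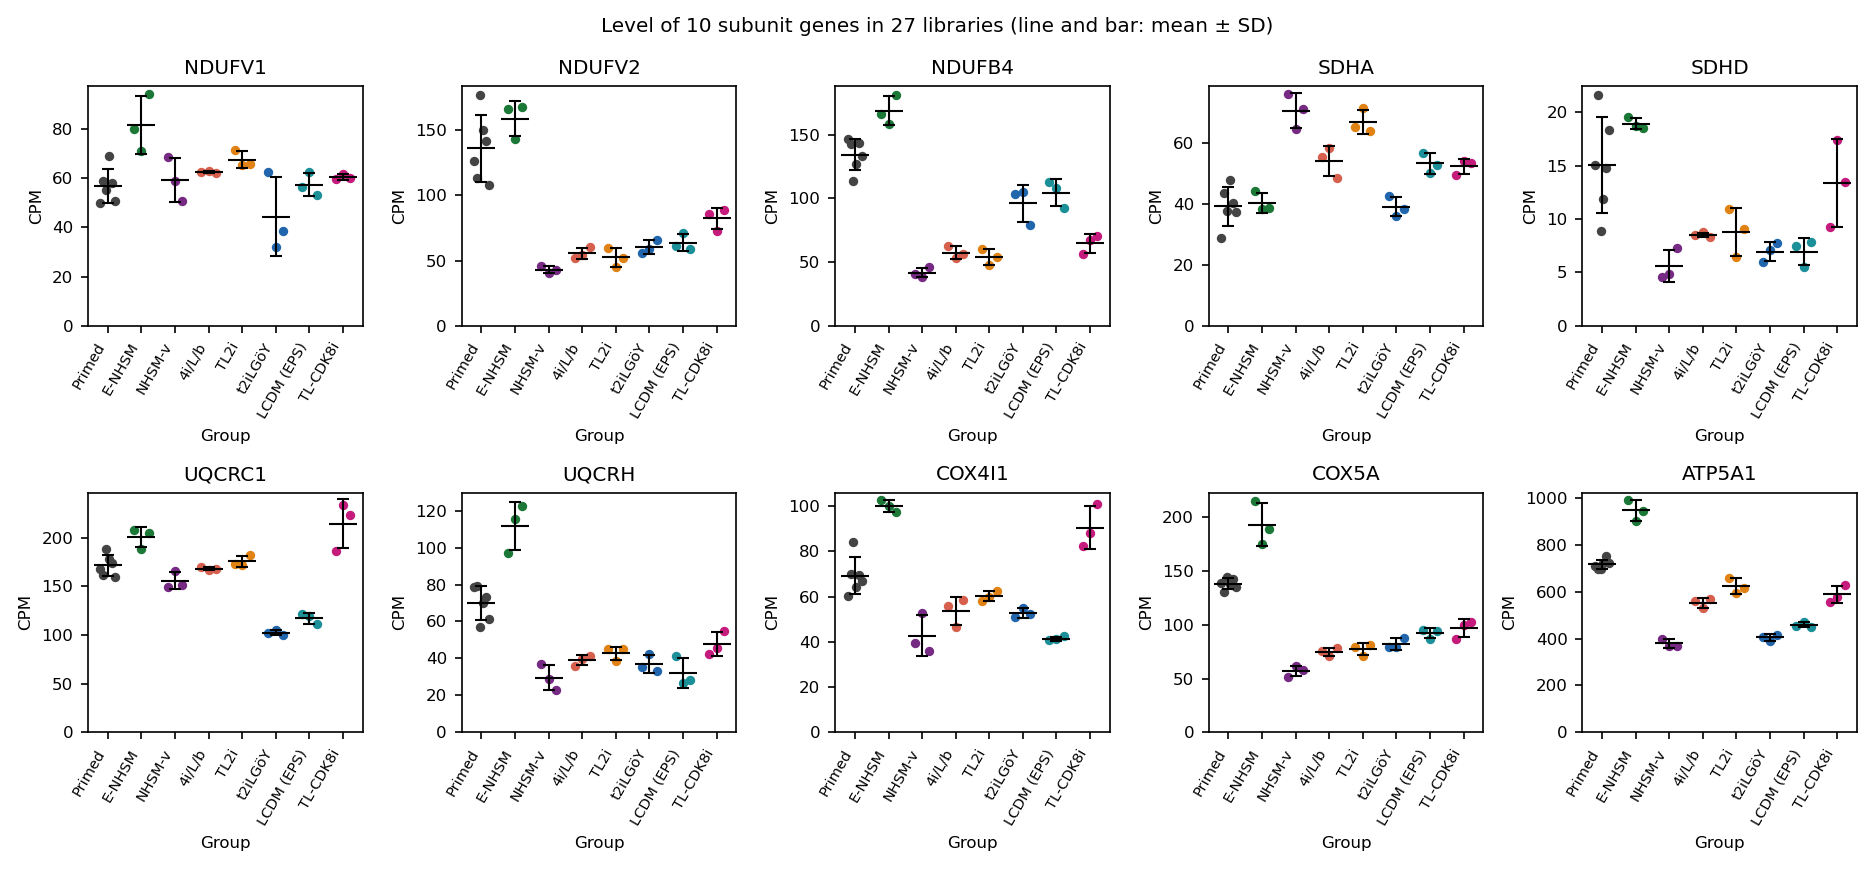
CPM (vertical axis, linear from 0) of 10 subunit genes in the 27 libraries by group. Points are libraries, and the line and bar are the mean ± SD (n = 6 for primed, n = 3 for each protocol). NDUFV2 is below the primed libraries in 6 protocols while NDUFV1 overlaps them there, SDHA lies above them in TL2i, NHSM-v, TL-CDK8i, LCDM (EPS), and 4i/L/b, and COX5A and ATP5A1 lie above them in E-NHSM and below them elsewhere.

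Some members carried little or no signal. ATP5J, COX6A2 (the muscle form of COX6A), COX7A2L, and COX7B2 (the testis form of COX7B) had at most 3 counts in every library, and COX7A2L and COX7B2 were listed at 0 in all 27, which allows up to 3 counts a library. NDUFA3 reached at most 7 counts. ATP5J encodes a stalk subunit that every ATP synthase holds, and its counts here were at most 3 in each library. Several small subunits have processed pseudogenes in primate genomes, and how reads that match more than 1 place or strand were counted is not given in the sources used here, so their counts are uncertain to that extent.

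Genes that supply the system were examined as lists. The mitochondrial ribosome, which translates the subunits encoded in mitochondrial DNA, gave 76 tested genes. In E-NHSM, 14 of them (18.4%, against 11.1% of all genes) rose and 1 fell (against 15.1% of all genes), with a median log2 fold change of 0.21. The genes that fell numbered 57 in NHSM-v (75%, against 30.6% of all genes), 62 in 4i/L/b (81.6%, against 29%), 53 in TL2i (69.7%, against 25.2%), 50 in t2iLGöY (65.8%, against 27.2%), 41 in LCDM (EPS) (53.9%, against 28.9%), and 37 in TL-CDK8i (48.7%, against 23.8%), with medians from -0.94 in NHSM-v to -0.43 in TL-CDK8i. The largest fall past the threshold was that of MRPS2 of the small subunit in 4i/L/b, with a log2 fold change of -2.20, and in NHSM-v that of MRPL45 of the large subunit (-1.89). In these 6 protocols 6 genes rose in TL-CDK8i and 1 in each of the others, MRPL53, with 1.17 in t2iLGöY and 1.01 in TL2i. These rises stood beside 22.3% to 28.2% of all genes called higher.

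Assembly factors, which are not part of the finished complexes, were counted by complex. Of 14 complex I assembly factors, 2 rose in E-NHSM, and 8 fell in NHSM-v, 6 in 4i/L/b, 4 in TL2i, 7 in t2iLGöY, 4 in LCDM (EPS), and 6 in TL-CDK8i. The 28.6% lower in TL2i and in LCDM (EPS) lay near the 25.2% and 28.9% of all genes, and the 14.3% higher in E-NHSM near 11.1%. NDUFAF2 fell most in NHSM-v (-1.78) and NDUFAF4 in TL2i (-1.58), while NDUFAF3 rose in NHSM-v (1.26), t2iLGöY (0.94), and LCDM (EPS) (1.01). Of 14 complex IV assembly factors, 5 rose in E-NHSM and 8 fell in NHSM-v, 7 in 4i/L/b, 6 in TL2i, and 4 in each of t2iLGöY, LCDM (EPS), and TL-CDK8i, while COX20 rose in TL2i (0.33) and PET100 in t2iLGöY (0.92). The 28.6% lower in TL-CDK8i, t2iLGöY, and LCDM (EPS) lay near the 23.8%, 27.2%, and 28.9% of all genes. COX17, a copper chaperone, fell in NHSM-v (-1.90) and t2iLGöY (-1.63). Of the 4, 5, and 3 tested assembly factors of complexes II, III, and V, 2, 1, and 2 fell in NHSM-v, and between 0 and 2 fell in each of the other comparisons, while ATPAF2 rose in NHSM-v (0.76) and LCDM (EPS) (0.97). Over all genes, 15.1% were called lower in E-NHSM and 23.8% to 30.6% in the other protocols, and these short lists were not tested against those shares. Cytochrome c (CYCS), the acyl carrier NDUFAB1, and USMG5, which belong to the system but fall outside the symbol rule, rose in E-NHSM (0.80, 0.73, and 0.65) and fell in NHSM-v (-1.31, -0.45, and -0.96).

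Regulators of mitochondrial biogenesis and of mitochondrial DNA expression gave 16 tested genes. In NHSM-v 11 fell, as did 11 in 4i/L/b, 9 in TL2i, 10 in t2iLGöY, 9 in LCDM (EPS), 11 in TL-CDK8i, and 2 in E-NHSM. The shares that fell ran from 56.2% in TL2i to 68.8% in NHSM-v among the first 6, against 23.8% to 30.6% of all genes, and the 2 of 16 in E-NHSM stood beside 15.1% of all genes. POLG2, the accessory subunit of the mitochondrial DNA polymerase, fell in NHSM-v (-3.25), 4i/L/b (-3.19), t2iLGöY (-2.67), and TL-CDK8i (-1.31). The rises in this list numbered 3 in 4i/L/b, 2 in TL2i, 3 in LCDM (EPS), 1 in NHSM-v, and 1 in t2iLGöY, beside 25.6% to 28.2% of all genes called higher. PPARGC1A, a coactivator of biogenesis, was among these rises in LCDM (EPS) (1.15), 4i/L/b (1.87), and t2iLGöY (1.29). In E-NHSM the 2 that fell were ESRRA (-0.72) and PPRC1 (-0.52), a nuclear receptor and a coactivator that drive respiratory genes.

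The tricarboxylic acid cycle, which makes the NADH and succinate that complexes I and II oxidize, had calls in both directions. Of 14 tested genes, 4 rose in E-NHSM, 4 rose and 6 fell in NHSM-v, 2 and 6 in 4i/L/b, 3 and 4 in TL2i, 2 and 6 in t2iLGöY, 2 and 6 in LCDM (EPS), and 2 and 1 in TL-CDK8i. The 28.6% that rose in NHSM-v and the 28.6% that fell in TL2i lay near the 28% and 25.2% of all genes. Over all genes, 22.3% to 28.2% were called higher in the 6 protocols other than E-NHSM, and 23.8% lower in TL-CDK8i. In E-NHSM 28.6% rose, against 11.1%, and in LCDM (EPS), NHSM-v, 4i/L/b, and t2iLGöY 42.9% fell, against 28.9%, 30.6%, 29%, and 27.2%. IDH2, an isocitrate dehydrogenase that makes NADPH, rose in LCDM (EPS) (1.13) and TL2i (0.95). MDH2, the malate dehydrogenase of the cycle, fell in 4i/L/b (-1.27), t2iLGöY (-1.25), and LCDM (EPS) (-1.25).

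Of the 12 genes that govern entry of pyruvate (11 tested in E-NHSM), 3 rose and 1 fell in E-NHSM. Over all genes, 11.1% were called higher and 15.1% lower there. In the others 3 rose and 5 fell in NHSM-v, 1 and 5 in 4i/L/b, 1 and 3 in TL2i, 3 and 5 in t2iLGöY, 1 and 5 in LCDM (EPS), and 3 and 3 in TL-CDK8i. The 25% that fell in TL2i and in TL-CDK8i lay near the 25.2% and 23.8% of all genes, as did the 25% that rose in NHSM-v, t2iLGöY, and TL-CDK8i beside 28%, 27.1%, and 22.3%. The 41.7% that fell in 4i/L/b, NHSM-v, LCDM (EPS), and t2iLGöY stood beside 29%, 30.6%, 28.9%, and 27.2%. The rise of 1 gene in each of 4i/L/b, TL2i, and LCDM (EPS) stood beside 26.6%, 25.6%, and 28.2% of all genes. The kinases that shut pyruvate dehydrogenase did not move together. PDK1 fell in 4i/L/b (-2.06) and NHSM-v (-1.91), whereas PDK4, at a mean of 0.72 CPM in primed cells, rose in 4i/L/b (4.17), NHSM-v (4.07), and TL2i (3.96).

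**Figure D5:**
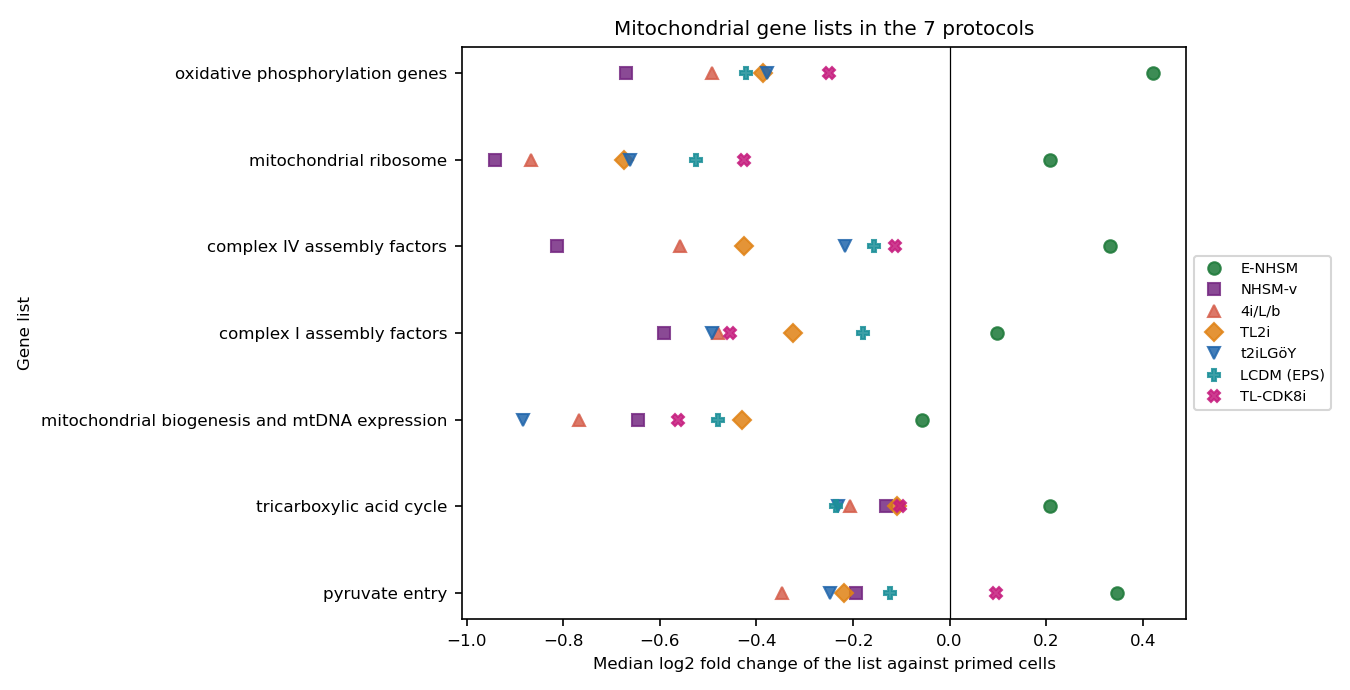
Median log2 fold change against primed cells (horizontal axis) of the oxidative phosphorylation genes and 6 other mitochondrial gene lists (rows) in the 7 protocols (symbols). The mitochondrial ribosome medians lie at -0.94 for NHSM-v and -0.43 for TL-CDK8i, and those of the tricarboxylic acid cycle lie closer to 0.

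The protocols were then compared with each other. In an edgeR test among the 7 protocols, 70 of 73 tested members (95.9%) differed, beside 90.9% of all genes, a share near the background. NDUFB9, COX7AH, and NDUFA4L2 were the 3 without a call. NHSM-v and E-NHSM, which share a name but stood at opposite ends, were compared directly. In NHSM-v 63 of 73 genes were lower than in E-NHSM, against 34.8% of all genes, and 1 was higher, against 33.4%, with a median log2 fold change of -1.06 beside -0.03 over all genes tested. The gene that was higher was SDHA (0.77 ± 0.13, adjusted p = 9.2e-05). All 14 tested genes of complex V were lower, as were 30 of 35 in complex I. NDUFB4 (-2.05 ± 0.10, adjusted p = 2.3e-10) and UQCRH (-1.96 ± 0.16, adjusted p = 5.3e-08) were among the lower genes.

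TL-CDK8i and TL2i differ in the replacement of the MEK and GSK3β inhibitors by the CDK8/19 inhibitor. In TL-CDK8i 23 of 73 genes (31.5%) were higher than in TL2i, the same share as the 31.5% of all genes. Lower levels were called for 5 (6.85%), against 33.3% of all genes. This split rested on the scaling. With library totals alone, 13 were higher and 15 lower, so that higher genes made up 46.4% of the calls instead of 82.1%, and the median log2 fold change of all genes moved from -0.04 to -0.16. The number higher was 15 without TL-CDK8i replicate 3, and the number lower was 3 without TL2i replicate 1 or replicate 3.

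Relative to the median of all genes, members that stood higher in TL-CDK8i included NDUFV2, at 85.4, 72.8, and 88.6 CPM against 59.9, 45.3, and 51.8 in TL2i. They did not overlap, and the log2 fold change was 0.63 ± 0.12, adjusted p = 3.8e-04. COX4I1 (0.57 ± 0.10, adjusted p = 2.0e-04), ATP5B (0.53 ± 0.09, adjusted p = 1.8e-04), NDUFA9 (0.70 ± 0.09, adjusted p = 1.9e-05), and ATP5G1 (0.67 ± 0.17, adjusted p = 0.00267) were also higher. SDHA was lower, at 49.6, 54.3, and 53.4 CPM against 65.3, 71.5, and 64.2, again without overlap (-0.37 ± 0.10, adjusted p = 0.00383). NDUFS7 was lower too (-0.47 ± 0.15, adjusted p = 0.0143), a call lost without TL2i replicate 3 (adjusted p = 0.0843).

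Markers of cell state and of other cell types differed between the same groups, and their part in these results was not tested. The 10 pluripotency markers summed to 6215 to 7269 CPM in primed cells and 7254 to 7348 in E-NHSM. The same sum was 135 to 150.2 CPM in NHSM-v, 190.2 to 199 in 4i/L/b, 198 to 206 in t2iLGöY, 447 to 474 in LCDM (EPS), 548 to 629 in TL2i, and 1915 to 2621 in TL-CDK8i. In LCDM (EPS) 9 of them were called lower, and in the 5 other protocols with reduced sums all 10, against 23.8% to 30.6% of all genes. NANOG, a defining factor of pluripotent cells, was at or under 3 counts in every library of t2iLGöY, NHSM-v, LCDM (EPS), and 4i/L/b, although these are labelled as reprogrammed pluripotent cells. In E-NHSM, 4 of the 10 were higher and 2 lower, against 11.1% and 15.1% of all genes.

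Fibroblast markers, 10 genes led by collagens and VIM, summed to 1628 to 3212 CPM in primed cells, 661 to 717 in E-NHSM, 11952 to 12576 in NHSM-v, 14589 to 18173 in 4i/L/b, 4804 to 7319.7 in TL2i, 6356 to 7244 in t2iLGöY, 2807 to 3346 in LCDM (EPS), and 11378 to 14380.4 in TL-CDK8i. Of the tested genes, 8 rose in NHSM-v, 8 in 4i/L/b, 8 in TL2i, 8 in TL-CDK8i, 4 in t2iLGöY, 3 in LCDM (EPS), and 1 in E-NHSM. Those that fell numbered 4 in LCDM (EPS), 6 in E-NHSM, 1 in 4i/L/b, 2 in t2iLGöY, and 1 in TL2i. DCN and LUM were at or under 3 counts in every library of primed, E-NHSM, and t2iLGöY cells. Neural progenitor markers summed to 2413 to 2699 CPM in primed cells, 1348 to 1474 in E-NHSM, 3648 to 4027 in t2iLGöY, and 4955 to 5054 in LCDM (EPS), with the other protocols between 2061 and 2959. Of 10 neural genes tested, 8 rose in t2iLGöY, 8 in LCDM (EPS), and 6 in NHSM-v. Of 8 tested, 4 rose in TL2i and 4 in 4i/L/b, and of 6 tested, 2 rose in TL-CDK8i and 1 in E-NHSM. The neural genes that fell numbered 2 in NHSM-v, 2 in TL-CDK8i, and 1 in each of the other 5 protocols. Trophoblast markers reached at most 274 CPM in sum, their highest library being one of TL-CDK8i, with 11.1 to 51.6 in primed cells. Of those tested, 5 of 7 rose in TL2i, 3 of 6 in TL-CDK8i, and 2 of 4 in NHSM-v. In each of t2iLGöY and LCDM (EPS) 1 of 4 rose, near the 27.1% and 28.2% of all genes. For all these marker counts, 11.1% of all genes were called higher and 15.1% lower in E-NHSM. In the other 6 protocols these shares were 22.3% to 28.2% and 23.8% to 30.6%, and small counts may lie near them.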

How the data were processed

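Raw counts of reads per gene symbol were used as the authors deposited them, in 8 count tables with 27 library columns, all assigned to a group. Libraries were made with a directional mRNA kit and sequenced as single reads. The labels name bcl2fastq, cutadapt, HISAT2, and HTSeq without versions. The genome build, the strand setting, and the handling of reads with several matches are not given in the sources used here, which bears on small subunits with pseudogenes. Library totals ran from 7111886 to 20760914 counts, and deeper libraries give the more precise values.

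Each comparison was fitted on its own groups with edgeR 4.0.16 (R 4.3.3, limma 3.58.1), with TMM factors, filterByExpr, the quasi-likelihood test, and Benjamini-Hochberg adjustment over all genes tested, called under 0.05. The scripts were tested on simulated data. CPM used TMM factors over all libraries, and a level of 3 counts per library was the detection limit, covering counting error only. The members and gene lists were chosen with earlier results of these data known. Genes named were the 3 called members with the largest rise and the 3 with the largest fall in each comparison with primed cells (mean log2 CPM of at least 3), the 5 with the smallest adjusted p among protocols, subunits with tissue paralogs or c ring genes, core subunits, members at or under 3 counts everywhere, and the most changed called genes of a list as examples. NDUFA3, NDUFB9, COX7AH, and marker genes were named after their values were seen. Of the members, 1 is counted in the totals but not reported here by itself. Alternatives were DESeq2 1.42.0, upper-quartile factors, library totals, no filter, at least 10 counts in every library, all 8 groups in 1 fit, primed letters J or K alone, a replicate block, and each library left out. Those for the 2 direct comparisons were added after the data were seen.

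Same-numbered libraries of different protocols did not deviate together, with a median correlation of -0.0013 over genes in 63 pairs (range -0.17 to 0.13), so the replicate numbers were not used as pairs.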

Additional observations from a re-analysis of the deposited data

Results flagged for a closer look

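Among the 37 members examined for single libraries that stand apart in the 6 primed libraries, 4 were picked out, all by library J3, where chance picks about 1 in 20. NDUFA1 was at 2.53 CPM in J3, with the next library at 12.7 CPM. NDUFC2 was at 30.7 CPM (next 40.1) and NDUFS1 at 75.0 CPM (next 90.6). ATP5G1 was the highest there, at 38.0 CPM (next 24.8). J3 was the shallowest primed library, and the part of depth in these values was not tested.

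Among the members named by the rules above, 15 were called higher in at least 1 protocol and lower in at least 1 other than in primed cells. Members not named were left out of this count. All 15 were called in the edgeR test among the 7 protocols, as were 95.9% of tested members and 90.9% of all genes. They were picked for opposite calls in the same libraries, so this test adds no separate support. In complex I the adjusted p was 4.9e-10 for NDUFA7, 5.1e-14 for NDUFB4, and 9.2e-06 for NDUFA9. In complex II it was 1.1e-08 for SDHB. In complex III it was 4.5e-11 for UQCRH, 5.1e-12 for UQCRC1, and 1.3e-11 for CYC1. In complex IV it was 1.7e-13 for NDUFA4, 5.6e-11 for COX4I1, 2.4e-14 for COX5A, and 2.3e-10 for COX7B. In complex V it was 1.2e-15 for ATP5A1, 5.1e-13 for ATP5B, 7.4e-12 for ATP5G2, and 1.2e-07 for ATP5G3.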

How the results depend on the processing

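Against primed cells, the counts of lower members stayed within 1.5 times the reported ones in NHSM-v, LCDM (EPS), 4i/L/b, TL-CDK8i, and t2iLGöY, and the test among protocols called between 67 and 71 members under its alternatives, left-out libraries included. With library totals, TL2i had 22 lower and 4 higher, LCDM (EPS) 4 higher, t2iLGöY 2 higher, and TL-CDK8i against TL2i 13 higher and 15 lower. With all 8 groups in 1 fit, 9 were higher in TL-CDK8i, 4 in LCDM (EPS), 2 in t2iLGöY, and 2 in 4i/L/b. DESeq2 called 2 higher in 4i/L/b and 1 in t2iLGöY, and no filter gave the same 2 counts. Upper-quartile factors gave 1 higher in t2iLGöY, and at least 10 counts gave 1 in t2iLGöY and 1 in TL2i. With the primed letter J alone, 1 was lower in E-NHSM and 1 higher in LCDM (EPS). Leaving out each library gave 21 to 38 lower in TL2i. Higher members then ranged from 1 to 2 in NHSM-v, 0 to 1 in 4i/L/b, 0 to 1 in t2iLGöY, 1 to 3 in LCDM (EPS), and 1 to 6 in TL-CDK8i. TL-CDK8i against TL2i then had 15 to 27 higher and 3 to 6 lower. Of 2598 refits of 174 calls of named genes, 2394 kept the call, 204 lost it (142 with 1 library left out), and 0 changed sign. Among named genes, with the primed letter J alone, the calls lost against primed cells were those of ATP5A1 in TL2i, ATP5G3 in E-NHSM, COX4I1 in TL-CDK8i, COX6B2 in TL2i, NDUFA7 in TL-CDK8i, NDUFA9 in E-NHSM and TL2i, NDUFC2 in LCDM (EPS), SDHB in 4i/L/b, t2iLGöY, TL-CDK8i, and TL2i, SDHD in 4i/L/b and TL2i, UQCR in NHSM-v, and UQCRC1 in TL-CDK8i. With the primed letter K alone, the calls lost against primed cells were those of ATP5G1 in LCDM (EPS) and t2iLGöY, COX4I1 in t2iLGöY, COX7B in t2iLGöY, CYC1 in LCDM (EPS) and NHSM-v, and UQCR in NHSM-v. With library totals, the calls lost against primed cells were those of ATP5A1 in TL2i, ATP5G1 in LCDM (EPS), ATP5G2 in TL2i, COX4I1 in t2iLGöY, COX6B2 in TL2i, COX7B in LCDM (EPS) and t2iLGöY, CYC1 in LCDM (EPS) and t2iLGöY, NDUFA7 in TL-CDK8i, NDUFA9 in TL2i, NDUFB4 in LCDM (EPS), SDHB in t2iLGöY, and SDHD in TL2i. With DESeq2, the calls lost against primed cells were those of COX4I1 in t2iLGöY, COX7B in t2iLGöY, CYC1 in NHSM-v, NDUFA7 in TL-CDK8i, and UQCR in NHSM-v. The causes were not tested.

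With the replicate number as a block, 70 members differed among protocols, 61 were lower and 1 higher in NHSM-v than in E-NHSM, and 22 were higher and 6 lower in TL-CDK8i than in TL2i. Against primed cells no block could be fitted, because the primed columns carry no number tied to a sample.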
